A study of Mus musculus with 24 samples.

Results

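The mitochondrial calcium uniporter, its regulators and the outer membrane channels that feed it were followed in optogenetically stimulated mouse muscle through 9 genes: Mcu, Mcub, Smdt1, Micu2, Micu3, Letm1, Vdac1, Vdac2 and Vdac3. They were taken by gene symbol from the 56941 genes of the expression tables, and all 9 were among the 13318 genes expressed highly enough to be tested. No measured value entered the rule that took them, but the list was chosen with earlier results of these data known. C2C12 cells, a mouse myoblast line, carried the blue light-gated channel ChR2 fused to tdTomato (genotype ChR2::tdTomato) in every condition, controls included. Monolayers were differentiated into muscle fibers on fibrin hydrogels and received 30 min of light pulses per day at 1 Hz, 4 Hz or 10 Hz, or no light pulses (control), before RNA was sequenced in bulk. There were 6 libraries per condition and 24 in all. The comparison asks how the frequency of daily stimulation changes muscle gene expression. All libraries derive from a single engineered cell line, and the study describes spontaneous twitching in unstimulated tissues too, so the controls were unstimulated rather than at rest. The labels do not say whether the libraries of a condition came from separate seedings, so p-values measure the spread between these libraries.

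Calcium reaches the mitochondrial matrix in steps. VDAC proteins, encoded by Vdac1, Vdac2 and Vdac3, form the wide pores of the outer membrane. MCU forms the selective pore of the inner membrane, MCUB is a paralog of MCU that lowers conductance when built into the pore, EMRE (encoded by Smdt1) holds pore and gatekeepers together, and MICU proteins keep the pore closed at resting calcium and open it when calcium rises. LETM1 is an inner membrane protein of cation exchange. In contracting muscle, calcium entering by this route stimulates matrix dehydrogenases and so couples contraction to ATP supply.

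The ratio of Mcub to Mcu carried the clearest within-library difference of these genes, so the coding sequences of the pore region of both genes are shown. Each line gives 60 bases of coding sequence in GENCODE M39, with the 4 codons of the DIME pore motif in capitals (codons 260 to 263 in Mcu and 246 to 249 in Mcub) and 8 codons on each side.
Mcu: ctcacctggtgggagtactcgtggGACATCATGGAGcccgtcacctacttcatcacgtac
Mcub: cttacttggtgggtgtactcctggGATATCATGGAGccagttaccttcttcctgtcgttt
The pair shared 47 of 60 bases, including 11 of the 12 bases of the motif.

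The windows around the start sites of the same pair are shown because their transcripts moved differently at 1 Hz. Each line gives 250 bases before and 50 after the start, from RefSeq (GRCm38.p6), which matched GRCm39 exactly on the minus strand at chr10:59452465-59452764 for Mcu and chr3:129763806-129764105 for Mcub; capitals mark a motif match.
Mcu: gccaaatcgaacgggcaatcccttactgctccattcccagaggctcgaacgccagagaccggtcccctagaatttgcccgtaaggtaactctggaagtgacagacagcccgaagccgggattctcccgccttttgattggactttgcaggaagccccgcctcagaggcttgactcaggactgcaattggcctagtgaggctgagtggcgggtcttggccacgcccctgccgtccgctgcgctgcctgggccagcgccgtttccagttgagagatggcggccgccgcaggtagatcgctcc
Mcub: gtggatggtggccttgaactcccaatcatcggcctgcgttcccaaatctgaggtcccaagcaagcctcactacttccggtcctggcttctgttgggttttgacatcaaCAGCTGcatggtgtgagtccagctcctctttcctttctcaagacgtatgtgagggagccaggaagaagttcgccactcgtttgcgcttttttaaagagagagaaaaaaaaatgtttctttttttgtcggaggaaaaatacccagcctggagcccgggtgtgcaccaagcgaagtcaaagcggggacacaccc
Motifs were searched on both strands, and none of them overlaps another in these windows. The Mcub window held the E-box CAGCTG, which 16.3% of 32851 RefSeq windows of this length held. Neither window held the CRE core TGACGTCA (1.79% of windows), the NRF1 core GCGCATGC (2.71%), the ERR element TCAAGGTCA (0.423%) or the Sp1 box GGGCGG (35.7%). Windows were found for 6 of the 9 genes: Mcu, Mcub, Smdt1, Micu2, Vdac1 and Letm1.

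Libraries held 4.09 M to 15.2 M estimated counts, and 4 Hz libraries (mean 9.12 M) were deeper than controls (5.67 M; exact permutation test, two-sided, p = 0.00433). The members held 25 to 8105 counts per library, with Micu3 the thinnest. The 8 muscle fiber markers were all detected, and their summed level rose from 6300.2 to 7892 CPM (counts scaled to library size with TMM factors) in controls to 9180 to 12753 at 1 Hz and 9295 to 14387 at 4 Hz, with 6457 to 9831 at 10 Hz. The 6 myoblast markers summed to 42.5 to 83.6 CPM, the 4 fibroblast markers to 50.4 to 92.3, and the 4 adipocyte markers to at most 1.08. Of the 4 macrophage markers, Cd68 held 67.8 to 113 CPM, Csf1r at most 2.66, and Ptprc and Adgre1 at most 1 count in any library. None of these markers was at 0 in every library. A set of small RNAs without poly(A) tails summed to 134 ± 25.5 CPM (SD, n = 6) in controls, 30.4 ± 20.5 at 1 Hz and 28.4 ± 11.7 at 4 Hz, below every control library at both frequencies, and to 127 ± 84.8 at 10 Hz. Transcripts of the mitochondrial genome took 2.60% ± 0.441 of counts in controls and less at 1 Hz (1.88% ± 0.369; exact permutation test, two-sided, p = 0.0130, adjusted p = 0.0292). They took 2.97% ± 1.22 at 4 Hz (exact permutation p = 0.509) and 3.34% ± 0.882 at 10 Hz (exact permutation p = 0.0823). At 4 Hz, libraries 3, 4 and 5 held 3.47%, 3.90% and 4.71%. Libraries 1, 2 and 6 held 1.94%, 2.01% and 1.80%. The part of these transcripts in the results was not tested. The protocol states that some low-input samples were ribodepleted rather than poly(A)-selected and does not name them. In bulk RNA, fewer cells of a type and less RNA per cell cannot be told apart.

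In unstimulated muscle, levels per transcript length (TPM, which corrects for transcript length and library depth) spanned from Vdac1 down to Micu3. Vdac1 stood highest at 443 ± 26.0 TPM, followed by Vdac2 at 333 ± 21.6, Smdt1 at 258 ± 22.7 and Vdac3 at 213 ± 14.7 (SD, n = 6 each). Micu2 at 50.4 ± 6.81, Mcub at 44.0 ± 4.27 and Mcu at 42.2 ± 4.96 TPM were neighbors whose ranges over the control libraries overlapped, so their order is not resolved. Letm1 followed at 22.4 ± 5.23 TPM and Micu3 at 4.45 ± 0.844 TPM. Smdt1 and Vdac3 also overlapped, the lowest Smdt1 library at 226 TPM lying under the highest Vdac3 library at 230.1. In TPM, Mcu was lower than Smdt1 and each VDAC gene in every control library.

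**Figure D1:**
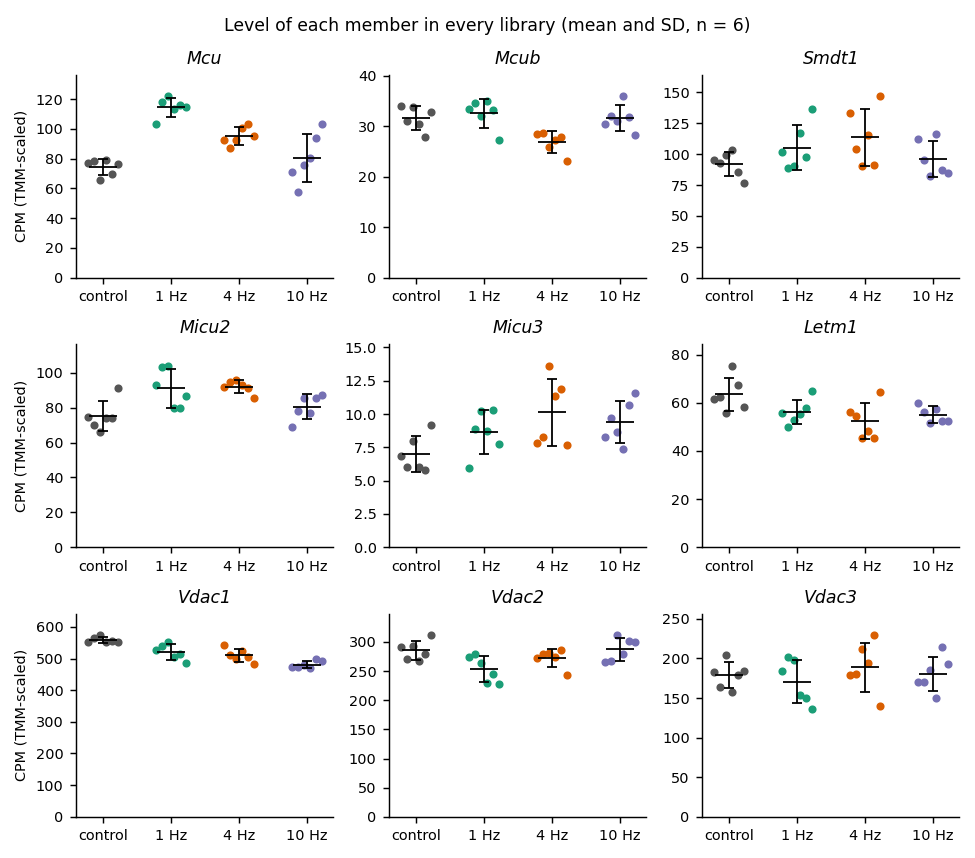
TMM-scaled CPM of the 9 genes in each of the 24 libraries (points), by condition, with mean and SD (n = 6) as bars and each panel on its own linear axis from 0. Mcu at 1 Hz (103 to 122 CPM) and 4 Hz (87.0 to 104) sits above all controls (65.8 to 79.4), and Vdac1 sits below all controls at each frequency.

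At 1 Hz, Mcu and Micu2 were upregulated and Vdac2 was downregulated (edgeR quasi-likelihood test, Benjamini-Hochberg adjusted p under 0.05 over all tested genes). At 4 Hz, Mcu, Micu2 and Micu3 were upregulated while Mcub, Vdac1 and Letm1 were downregulated. At 10 Hz only Vdac1 passed the test, and it was downregulated. Against these counts, 18.1% of all tested genes were higher and 17.3% lower at 1 Hz, 19.2% higher and 20.2% lower at 4 Hz, and 2.67% higher and 2.22% lower at 10 Hz. The share of members that passed, 3 of 9 at 1 Hz, lay near that of all genes, 35.4%, and 6 of 9 at 4 Hz lay beside 39.4%. With the additional requirement of an absolute log2 fold change over 0.5, met by 18.3% of genes at 1 Hz, 20.1% at 4 Hz and 1.86% at 10 Hz, the members were Mcu at 1 Hz, Micu3 at 4 Hz and none at 10 Hz, where 3 members had an unadjusted p under 0.05 in edgeR and DESeq2 also gave 0 members. The median log2 fold change of the 9 genes was 0.03 at 1 Hz, 0.08 at 4 Hz and 0.01 at 10 Hz, beside -0.01 for all tested genes at each frequency. All of these comparisons share the same 6 control libraries.

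**Figure D2:**
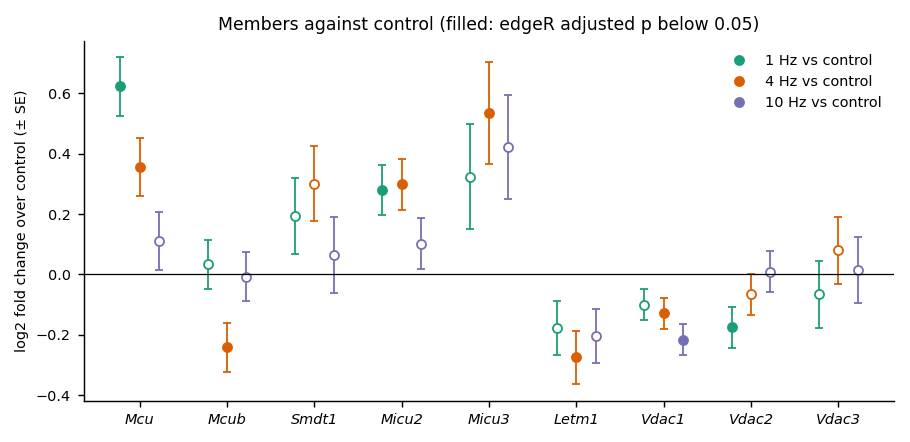
Log2 fold change over control of the 9 genes at 1, 4 and 10 Hz, with standard errors as bars; filled points passed an edgeR adjusted p of 0.05. Mcu at 1 Hz (0.62) and Micu3 at 4 Hz (0.53) lie highest, and the filled Vdac1, Vdac2, Mcub and Letm1 points lie below 0.

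Mcu (GRCm39 chr10:59282806-59452522, minus strand, 8 exons) encodes the pore itself. Its level ran from 65.8 CPM (median 76.6) to 79.4 in controls, from 103 (median 115) to 122 at 1 Hz, from 87.0 (median 93.8) to 104 at 4 Hz and from 57.6 (median 78.1) to 103 at 10 Hz. Every library at 1 Hz and at 4 Hz was higher than every control library, whereas the 10 Hz libraries spread from below the lowest control to above the highest. How many of all tested genes separated fully from controls was not counted, here or for the genes below. The log2 fold change was 0.62 ± 0.097 (SE; adjusted p = 3.69e-05) at 1 Hz, a 1.54-fold rise, and 0.36 ± 0.097 (adjusted p = 0.00494) at 4 Hz. At 10 Hz it was 0.11 ± 0.097 (adjusted p = 0.561). Between frequencies, where 36.3% of all genes passed for 10 Hz against 1 Hz, Mcu was lower at 10 Hz than at 1 Hz (log2 fold change -0.51 ± 0.096, adjusted p = 0.000204). The 4 Hz value differed from the 1 Hz value by -0.27 ± 0.095, which did not pass (adjusted p = 0.0635) but did in 6 of 10 other settings (adjusted p 0.0148 to 0.150) and in 0 of 12 fits without a single library, and the TPM ranges of these groups did not overlap. Mcu was the member with the largest rise at 1 Hz, and its call there was kept without any single library. On the TPM scale, where the median of all genes moved by -0.16 at 4 Hz (limma, log2(TPM + 1)), the 4 Hz difference was 0.16 (adjusted p = 0.250; range 0.00142 to 0.762 over all alternatives).

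The rise of Mcu at 1 Hz and 4 Hz went together with the fall of the small RNA set and the rise of the fiber markers given above. With the small RNA level as a covariate, the Mcu log2 fold change was 0.18 (adjusted p = 0.656) at 1 Hz and -0.08 (adjusted p = 0.762) at 4 Hz, and of all 13318 genes 1 passed at 1 Hz and 249 at 4 Hz. For 10 Hz against 1 Hz it was -0.15 (adjusted p = 0.479). Since no library at 1 Hz or 4 Hz reached the small RNA level of a control, stimulation and this level cannot be told apart there. Within 10 Hz, the library order by small RNA level was the reverse of that by Mcu. Libraries 2, 1, 3, 4, 5 and 6 held 272, 176, 111, 97.7, 67.3 and 38.3 CPM of small RNA. Their Mcu levels were 57.6, 71.1, 75.9, 80.3, 94.1 and 103 CPM. No other condition showed a strictly reversed order, and this relation was not tested. The part of the fiber markers in the Mcu result was not tested.

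Mcub (chr3:129707425-129763869, minus strand, 8 exons) encodes the pore subunit that lowers conductance. Its level ran from 27.9 CPM (median 31.9) to 34.1 in controls, from 27.2 (median 33.3) to 35.0 at 1 Hz, from 23.1 (median 27.5) to 28.7 at 4 Hz and from 28.2 (median 31.5) to 35.9 at 10 Hz. Of the 4 Hz libraries, 4 of 6 were lower than every control, while 1 Hz and 10 Hz libraries lay within or close to the control range. Mcub was downregulated at 4 Hz (log2 fold change -0.24 ± 0.081, SE; adjusted p = 0.0204), and its values at 1 Hz (0.03 ± 0.081, adjusted p = 0.776) and 10 Hz (-0.01 ± 0.081, adjusted p = 0.972) did not pass. The difference between frequencies was tested as well. Mcub was lower at 4 Hz than at 1 Hz (-0.27 ± 0.080, adjusted p = 0.0261), where 12.3% of all genes passed, and it was the only member to pass there. It was higher at 10 Hz than at 4 Hz (0.23 ± 0.080, adjusted p = 0.0363), where 22.8% of all genes passed, again as the only member. These calls were lost without single libraries: at 4 Hz against control without control library 1 (adjusted p = 0.0579) or 4 Hz library 6 (0.0706), and against 1 Hz and 10 Hz in 4 and 10 of 12 such fits (adjusted p up to 0.0678 and 0.124).

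The proportion of Mcub to Mcu transcripts, a ratio of TPM values within each library, ran from 0.944 (median 0.988) to 1.26 in controls. It ran from 0.641 (median 0.757) to 0.831 at 1 Hz, from 0.618 (median 0.732) to 0.828 at 4 Hz and from 0.765 (median 1.04) to 1.39 at 10 Hz. All 12 libraries at 1 Hz and 4 Hz lay below all 6 controls, and those at 10 Hz straddled them. The 10 Hz library with the least small RNA, library 6 (38.3 CPM), had a ratio of 0.765, within the 1 Hz and 4 Hz ranges. Library 2, with the most (272 CPM), had the highest ratio, 1.39. Libraries 3 and 4 broke this order, with 0.964 at 111 CPM and 1.125 at 97.7 CPM. The geometric mean fell from 1.05 in controls to 0.737 at 1 Hz and 0.730 at 4 Hz (exact permutation test of the log2 ratio, two-sided, p = 0.00216 for each, the smallest this design allows; adjusted p = 0.0227 over 21 ratio tests). At 10 Hz it was 1.03 (exact permutation p = 0.926). At 1 Hz the ratio moved with Mcu alone among the pair. At 4 Hz both genes passed edgeR's test on counts in opposite directions, but the ratio is of TPM values. On that scale Mcub was lower at 4 Hz (limma on log2(TPM + 1), -0.35, adjusted p = 0.00297). The Mcu value of 0.16 did not pass (limma adjusted p = 0.250), while the median of all genes moved by -0.16. Because both genes are read from the same library, this ratio does not depend on how libraries were scaled to each other, but the small RNA level differed between the same groups and its part in the ratio was not tested.

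**Figure D3:**
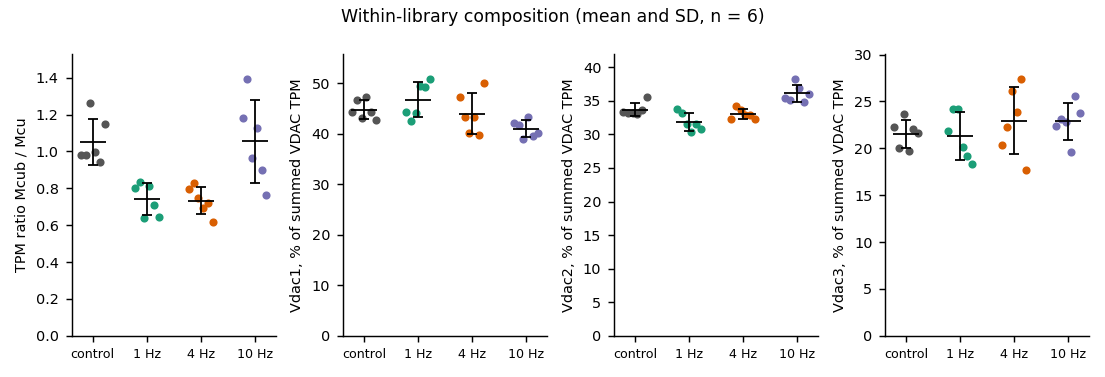
From left to right, the Mcub to Mcu TPM ratio and the percentages of summed VDAC TPM from Vdac1, Vdac2 and Vdac3 in each library (points) with arithmetic mean and SD (n = 6), on linear axes from 0. All 1 Hz and 4 Hz ratios lie below the lowest control (0.944), and at 10 Hz the Vdac1 share is lower and the Vdac2 share higher than in most controls.

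Smdt1 (chr15:82223160-82235678, plus strand, 3 exons) encodes EMRE, which MCU needs in order to conduct in animal cells. It ran from 76.8 CPM (median 94.0) to 104 in controls, from 88.5 (median 99.6) to 137 at 1 Hz, from 90.2 (median 110) to 147 at 4 Hz and from 82.6 (median 91.1) to 116 at 10 Hz. The groups overlapped, although 4 of 6 libraries at 4 Hz exceeded every control. The log2 fold change was 0.19 ± 0.12 (SE; adjusted p = 0.237) at 1 Hz, 0.30 ± 0.12 (adjusted p = 0.0558) at 4 Hz and 0.06 ± 0.12 (adjusted p = 0.825) at 10 Hz, none of which passed. At 4 Hz DESeq2 gave an adjusted p of 0.0431, within a range of 0.0241 to 0.562 over all alternatives. Relative to Mcu within a library, Smdt1 fell from a geometric mean of 6.13 in controls to 4.54 at 1 Hz (exact permutation test, two-sided, p = 0.00649, adjusted p = 0.0341), with the group ranges overlapping. This call was kept in 6 of 12 tests without a single library and lost without control library 1, 2, 3, 4 or 5 or 1 Hz library 3 (adjusted p up to 0.0727). The values at 4 Hz, 5.88 (p = 0.660), and at 10 Hz, 5.90 (p = 0.762), did not pass the exact permutation test.

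Micu2 and Micu3 encode gatekeepers with calcium-binding EF hands. Micu2 (chr14:58153706-58236767, minus strand, 12 exons) ran from 65.9 CPM (median 74.1) to 91.2 in controls, from 79.6 (median 89.7) to 104 at 1 Hz, from 85.7 (median 92.5) to 95.8 at 4 Hz and from 68.8 (median 81.9) to 87.3 at 10 Hz. A single control library, number 6, held the 91.2 CPM and stood apart from the other controls, and 5 of 6 libraries at 4 Hz were higher even than that one. Micu2 rose by a log2 fold change of 0.28 ± 0.084 (SE; adjusted p = 0.0111) at 1 Hz and 0.30 ± 0.083 (adjusted p = 0.00607) at 4 Hz. At 10 Hz the value was 0.10 ± 0.084 (adjusted p = 0.530). Both calls ended with total count scaling (adjusted p = 0.0608 and 0.0540) and on the TPM scale with limma (0.111 and 0.426); over all alternatives the adjusted p ran from 0.00216 to 0.583 and from 0.00110 to 0.426. Although both genes rose at 1 Hz, the Micu2 to Mcu ratio fell from a geometric mean of 1.19 to 0.950 there (exact permutation test, two-sided, p = 0.0130, adjusted p = 0.0455), a call kept in 2 of 12 tests without a single library (those without 1 Hz library 1 or 2; adjusted p up to 0.0909).

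Micu3 (chr8:40760499-40839367, plus strand, 15 exons), the gatekeeper paralog best known from nervous tissue, was the least abundant member. It ran from 5.81 CPM (median 6.42) to 9.21 in controls, from 5.97 (median 8.81) to 10.3 at 1 Hz, from 7.70 (median 9.83) to 13.6 at 4 Hz and from 7.37 (median 9.17) to 11.6 at 10 Hz. At 4 Hz and at 10 Hz, 3 of 6 libraries each exceeded every control. Those at 4 Hz were libraries 3, 4 and 5, at 13.6, 11.4 and 11.9 CPM. They also had the higher shares of mitochondrial genome transcripts within 4 Hz, whose part was not tested. Libraries 1, 2 and 6 held 7.85, 8.28 and 7.70 CPM, within the control range. Micu3 was upregulated at 4 Hz (log2 fold change 0.53 ± 0.17, SE; adjusted p = 0.0142), while 0.32 ± 0.17 at 1 Hz (adjusted p = 0.149) and 0.42 ± 0.17 at 10 Hz (adjusted p = 0.149) did not pass. The 4 Hz call ended on the TPM scale with limma (0.29, adjusted p = 0.118) and with the small RNA covariate (0.32, adjusted p = 0.587), in a range of 0.00684 to 0.587 over all alternatives. No difference in Micu3 between frequencies passed the test. Micu3 remained at a small fraction of Micu2, with a TPM ratio of 0.0877 in controls, 0.0902 at 1 Hz, 0.103 at 4 Hz and 0.111 at 10 Hz (geometric means; lowest adjusted p = 0.0714, exact permutation test).

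Letm1 (chr5:33897011-33940209, minus strand, 14 exons) ran from 55.6 CPM (median 62.1) to 75.3 in controls, from 49.8 (median 55.4) to 64.6 at 1 Hz, from 45.4 (median 51.4) to 64.6 at 4 Hz and from 51.7 (median 54.3) to 60.0 at 10 Hz. At 4 Hz 4 of 6 libraries, and at 1 Hz and 10 Hz 3 of 6 each, were lower than every control. The 4 Hz libraries 3, 4 and 5, with the higher mitochondrial genome shares, held 45.4, 48.2 and 45.5 CPM. Libraries 1, 2 and 6 held 56.1, 54.6 and 64.6 CPM, and the part of that share was not tested. Letm1 was downregulated at 4 Hz (log2 fold change -0.28 ± 0.089, SE; adjusted p = 0.0160). The values of -0.18 ± 0.089 at 1 Hz (adjusted p = 0.125) and -0.21 ± 0.089 at 10 Hz (adjusted p = 0.183) did not pass. The 4 Hz call ended without control library 4, the highest one (adjusted p = 0.0555), and on the TPM scale with limma (-0.36, adjusted p = 0.0968), with a range of 0.00183 to 0.378 over all alternatives.

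Vdac1 (chr11:52251198-52280348, plus strand, 9 exons), the outer membrane channel that also binds hexokinase, showed the tightest control group of the 9 genes. It ran from 552 CPM (median 554) to 573 in controls, from 485 (median 521) to 552 at 1 Hz, from 484 (median 507) to 541 at 4 Hz and from 469.7 (median 477) to 498 at 10 Hz. Every stimulated library, 18 in all, lay below the lowest control in CPM, although the highest 1 Hz library did so by under 1 CPM and the TPM ranges of 1 Hz and control overlapped. The share of all tested genes with such a separation was not counted. The log2 fold change was -0.10 ± 0.052 (SE; adjusted p = 0.133) at 1 Hz, -0.13 ± 0.052 (adjusted p = 0.0485) at 4 Hz and -0.22 ± 0.052 (adjusted p = 0.0147) at 10 Hz. The 10 Hz call was kept without any single library, in 12 of 12 fits, and the level was 0.861 times that of controls. The 4 Hz call, close to the threshold, was kept in 1 of 12 such fits (adjusted p up to 0.136). Against control at 1 Hz, Vdac1 passed in 2 of 10 other settings, DESeq2 (adjusted p = 0.0342) and total count scaling (0.0127), and in 0 of 12 such fits. No difference in Vdac1 between frequencies passed, the nearest being 10 Hz against 1 Hz (-0.12 ± 0.052, adjusted p = 0.0802). That contrast passed in 3 of 10 other settings (adjusted p 0.00252 to 0.630) and in 0 of 12 fits without a single library. The TPM ranges of 10 Hz and 1 Hz did not overlap. The small RNA level at 10 Hz overlapped that of controls, and with it as covariate the 10 Hz call remained. That call was lost without a filter on low counts (adjusted p = 0.289) and with only the 12 libraries compared (0.0774).

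Vdac2 (chr14:21874266-21895952, plus strand, 9 exons), the isoform that holds BAK at the outer membrane, ran from 268 CPM (median 285) to 311 in controls, from 227 (median 254) to 279.9 at 1 Hz, from 243 (median 277) to 286 at 4 Hz and from 265 (median 289.8) to 311 at 10 Hz. At 1 Hz 4 of 6 libraries were lower than every control, and in CPM the other conditions overlapped controls. Vdac2 was downregulated at 1 Hz (log2 fold change -0.17 ± 0.068, SE; adjusted p = 0.0446), a call kept in 4 of 12 fits without a single library (adjusted p up to 0.123) and in 5 of 10 other settings. The values at 4 Hz (-0.07 ± 0.067, adjusted p = 0.454) and 10 Hz (0.01 ± 0.067, adjusted p = 0.960) did not pass. On the TPM scale with limma, where the median of all genes also fell, the 4 Hz value was -0.23 (adjusted p = 0.0251; range 0.0227 to 0.953 over all alternatives), and the 4 Hz and control TPM ranges did not overlap. Between frequencies, Vdac2 was higher at 10 Hz than at 1 Hz (0.18 ± 0.067, adjusted p = 0.0339), a call kept in 6 of 12 fits without a single library (adjusted p up to 0.0959) and in 5 of 10 other settings.

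Vdac3 (chr8:23066114-23104500, minus strand, 9 exons) ran from 158 CPM (median 181) to 204 in controls, from 136 (median 169) to 202 at 1 Hz, from 139.9 (median 187) to 229 at 4 Hz and from 150.6 (median 178) to 214 at 10 Hz. All conditions overlapped, and the spread within a stimulated condition exceeded any shift between conditions. The log2 fold change was -0.07 ± 0.11 at 1 Hz, 0.08 ± 0.11 at 4 Hz and 0.01 ± 0.11 at 10 Hz (SE; lowest adjusted p = 0.592), and the 4 Hz and 10 Hz values turned negative with total count scaling (-0.01 and -0.02) and on the TPM scale (-0.12 and -0.10). The pseudogene Vdac3-ps1 (chr13:18205326-18206178, minus strand) matched the Vdac3 transcript at 849 of 853 aligned bases, so reads could be divided between them. Its mean level was 5.87 CPM in controls, 5.36 at 1 Hz, 7.06 at 4 Hz and 6.20 at 10 Hz, small beside Vdac3, and it did not pass at any frequency.

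Expressed as percentages of the summed VDAC TPM of a library, Vdac1 supplied from 42.8% (median 44.3%) to 47.3% in controls and from 39.0% (median 40.9%) to 43.4% at 10 Hz. Vdac2 supplied from 33.0% (median 33.3%) to 35.6% in controls and from 34.9% (median 35.7%) to 38.2% at 10 Hz. Thus 10 Hz libraries held relatively less Vdac1 and more Vdac2 on average, and the groups overlapped: control library 6, at 35.6%, exceeded 3 of the 6 Vdac2 shares at 10 Hz. The mean Vdac1 share fell from 44.8% to 41.0% (exact permutation test, two-sided, p = 0.00649, adjusted p = 0.0341) and the mean Vdac2 share rose from 33.7% to 36.1% (exact permutation p = 0.00866, adjusted p = 0.0364). Without control library 1, 2, 4 or 5 both calls were lost, and without control library 3 the Vdac2 call (adjusted p up to 0.0727). Vdac3 shares, 21.5% in controls and 22.9% at 10 Hz, did not pass (adjusted p = 0.418, exact permutation test). At 1 Hz and 4 Hz no VDAC share passed, the nearest being Vdac2 at 1 Hz (31.9%, exact permutation adjusted p = 0.102). A share counts a gene against the other VDAC genes, so a lower Vdac1 share raises the others arithmetically.

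The other genes of the pathway moved in mixed directions. Of 10 further genes of the uniporter complex and its regulation, 1 was higher and 2 lower at 1 Hz, 1 higher and 4 lower at 4 Hz, and 1 was lower at 10 Hz. Over all tested genes, 35.4% passed at 1 Hz, 39.4% at 4 Hz and 4.89% at 10 Hz, and nothing particular is read from the counts of these lists. Ghitm, an inner membrane protein of calcium and proton exchange, ran from 462 CPM (median 544) to 609.9 in controls, from 596 (median 666) to 831 at 1 Hz, from 712 (median 799) to 916 at 4 Hz and from 569 (median 618) to 668 at 10 Hz. Every 4 Hz library exceeded every control. Its log2 fold change was 0.30 ± 0.085 (SE; adjusted p = 0.00702) at 1 Hz and 0.54 ± 0.085 (adjusted p = 2.49e-05) at 4 Hz, beside 0.17 at 10 Hz (adjusted p = 0.271). Letm2, a paralog of Letm1, was lower at 1 Hz (-0.79 ± 0.20, adjusted p = 0.00348). Afg3l2, a subunit of the protease that removes unassembled EMRE, was lower at 4 Hz (-0.36 ± 0.073, adjusted p = 0.000335) and was the gene lower at 10 Hz (-0.25 ± 0.073, adjusted p = 0.0401).

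**Figure D4:**
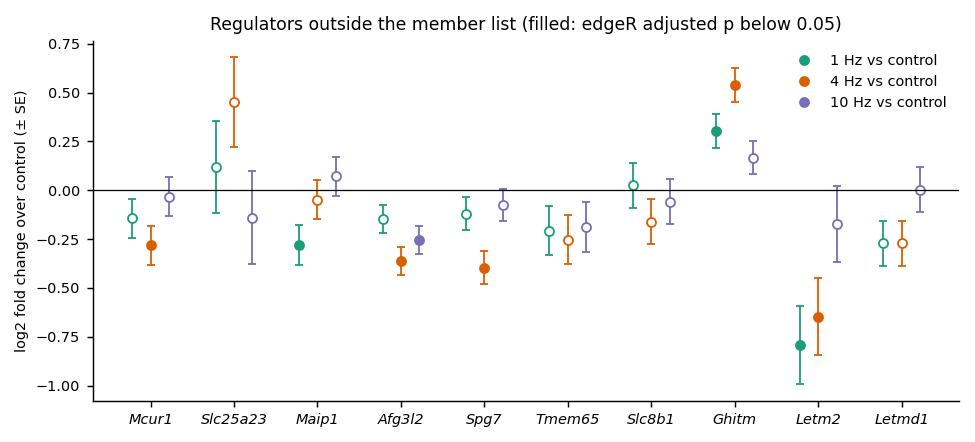
Log2 fold change over control of the 10 further uniporter genes at 1, 4 and 10 Hz, with standard errors as bars; filled points passed an edgeR adjusted p of 0.05. Ghitm lies above 0 at 1 Hz (0.30) and 4 Hz (0.54), Letm2 lies lowest (-0.79 at 1 Hz), and at 10 Hz only Afg3l2 is filled.

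Among 12 outer membrane proteins and VDAC partners, 6 were higher and 2 lower at 1 Hz (all genes, 18.1% and 17.3%), 4 higher and 3 lower at 4 Hz (19.2% and 20.2%), and 1 was lower at 10 Hz (2.22%). At 1 Hz these included Hspa9, the matrix chaperone that links VDAC1 to the endoplasmic reticulum (0.34 ± 0.062), and Hk2, the hexokinase of muscle that docks on VDAC (0.43 ± 0.098). At 4 Hz Ckmt2, the mitochondrial creatine kinase of muscle (0.71 ± 0.093), and Slc25a5, an ADP/ATP carrier (0.35 ± 0.064), were higher. At 10 Hz the single gene was Hk1, another hexokinase that docks on VDAC (-0.47 ± 0.10, edgeR adjusted p = 0.00748). Its mean level was 262 CPM in controls and at 1 Hz, 185 at 4 Hz and 189 at 10 Hz, so the lower level was not particular to 10 Hz. Vdac1 likewise passed as lower at both 4 Hz and 10 Hz.

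The same shares of all genes apply to the lists that follow. Among 11 genes of contacts between endoplasmic reticulum and mitochondria, 5 were higher and 2 lower at 1 Hz, 4 higher and 3 lower at 4 Hz, and none passed edgeR's test at 10 Hz (2 at an unadjusted p under 0.05; 1 in DESeq2). Rmdn3, a tether of these contacts, was lower at 1 Hz (-0.36 ± 0.083) and 4 Hz (-0.57 ± 0.082), whereas the calcium release channels Itpr2 at 1 Hz (0.63 ± 0.15) and Itpr1 at 4 Hz (0.57 ± 0.14) were higher. Of 8 tested calcium-sensitive dehydrogenases and carriers of 9 listed, 2 were higher and 1 lower at 1 Hz, 3 higher and 3 lower at 4 Hz, and none passed edgeR's test at 10 Hz (1 at an unadjusted p under 0.05; 0 in DESeq2). Slc25a12, the calcium-regulated aspartate-glutamate carrier, rose at 1 Hz (0.38 ± 0.094) and 4 Hz (0.48 ± 0.094), and Pdp1, the calcium-stimulated phosphatase of pyruvate dehydrogenase, rose at 1 Hz (0.39 ± 0.11) and 4 Hz (0.51 ± 0.11). In TPM (SD, n = 6), Slc25a12 was 42.7 ± 7.90 in controls, 47.4 ± 4.39 at 1 Hz and 49.0 ± 2.03 at 4 Hz. Pdp1 was 33.0 ± 4.74, 43.6 ± 4.09 and 43.2 ± 5.05. With the small RNA covariate only 1 of 13318 genes passed at 1 Hz and 249 at 4 Hz. The covariate values of the genes named from these lists were not read. For them too, stimulation and small RNA level cannot be told apart at 1 Hz and 4 Hz, since the libraries are the same. Of 10 genes that track mitochondrial mass, 1 was higher at 1 Hz, 4 were higher and 1 lower at 4 Hz, and none passed edgeR's test at 10 Hz (4 at an unadjusted p under 0.05; 1 in DESeq2), with median log2 fold changes of 0.03, 0.11 and 0.08. The gene at 1 Hz was Cs, citrate synthase (0.21 ± 0.064, adjusted p = 0.0129). Of the 8 fiber markers, 6 were higher at 1 Hz and 6 at 4 Hz, and 1 at 10 Hz, with median log2 fold changes of 0.68, 0.84 and 0.22. Of the 6 myoblast markers, 1 was higher at 1 Hz, 4 were higher and 1 lower at 4 Hz, and none passed at 10 Hz in edgeR (1 at an unadjusted p under 0.05) or DESeq2.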

How the data were processed

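Per the study's methods and the submitters' processing notes, reads were processed by the authors with the nf-core/rnaseq pipeline (STAR, Salmon) against GRCm39. Deposited gene-level estimated counts from Salmon, not normalized, and TPM values, scaled by the authors' pipeline to the same sum in each library, were used. The annotation release and strand setting are not given in the sources used here. Estimates were rounded to integers before testing. Low-count genes were removed with filterByExpr, scaled by TMM and fitted in edgeR 4.0.16 (R 4.3.3) with condition as the only term over all 24 libraries; quasi-likelihood contrasts were adjusted by Benjamini-Hochberg over 13318 genes, and the pipeline was tested on simulated data. Ratios of TPM were compared by two-sided exact permutation over 924 splits. Alternatives used DESeq2 1.42.0, limma 3.58.1, other scalings and filters, a replicate block, a small RNA covariate and fits without single libraries. The study's methods used DESeq2. The members and gene lists were chosen with earlier results of these data known. All 9 members are named; of each further list, up to 2 genes per frequency with the smallest adjusted p. Not every pair of same-numbered libraries deviated together (36 pairs, median r = 0.0173, range -0.184 to 0.362), so replicate numbers were not used to pair. Sequences came from GENCODE M39 and RefSeq. 1 gene of the uniporter list is not reported here. No batch or date is labelled.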

Additional observations from a re-analysis of the deposited data

Results flagged for a closer look

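Among 64 groups of 6 libraries (9 genes and 7 ratios in 4 conditions), 3 held a library whose gap to its neighbor exceeded Dixon's 95% critical value, about what chance gives at 1 in 20. Control library 6 was high in Micu2, at 91.2 CPM, and in the Vdac2 share of summed VDAC TPM, at 35.6%. At 4 Hz, library 6 was low in Vdac2, at 243 CPM.

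Effects that differed between frequencies by a direct edgeR contrast were those of Mcu, Mcub and Vdac2. Mcu at 10 Hz against 1 Hz had a log2 fold change of -0.51. Mcub had -0.27 at 4 Hz against 1 Hz and 0.23 at 10 Hz against 4 Hz. Vdac2 had 0.18 at 10 Hz against 1 Hz.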

How the results depend on the processing

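Counts of members past adjusted p 0.05 were 3 at 1 Hz, 6 at 4 Hz and 1 at 10 Hz relative to control; between frequencies they were 1 (4 Hz against 1 Hz), 2 (10 Hz against 1 Hz) and 1 (10 Hz against 4 Hz). With limma on log2(TPM + 1) or log2(TPM + 0.1) they were 1 at 1 Hz and 3 at 4 Hz relative to control, and 2 for 4 Hz against 1 Hz. Of all genes, 27.4%, 37.9% and 11.7% passed there on log2(TPM + 1). With the small RNA covariate they were 0 at 1 Hz, 0 at 4 Hz, 2 for 4 Hz against 1 Hz, 0 for 10 Hz against 1 Hz and 0 for 10 Hz against 4 Hz (each 0 also at an unadjusted p under 0.05 in edgeR), and Mcu at 4 Hz reversed to -0.084. In the same order, 0.00751%, 1.87%, 12.7%, 1.65% and 0% of all genes passed with this covariate, so the members lost calls together with genes at large. Without a filter on low counts, which tests 31472 genes, they were 0 at 10 Hz relative to control, 0 for 4 Hz against 1 Hz, 1 for 10 Hz against 1 Hz and 0 for 10 Hz against 4 Hz. The shares of all genes that passed there were 1.46%, 3.06%, 14% and 8.12%. With only the 12 libraries compared, members past the threshold were 0 at 10 Hz against control, 1 for 10 Hz against 1 Hz and 0 for 10 Hz against 4 Hz. Here 2.39%, 35.1% and 19.2% of all genes passed. Total count scaling and DESeq2 each gave 2 members for 4 Hz against 1 Hz, where 12.2% and 15% of all genes passed. The cause of these shifts was not tested except as stated.

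With the replicate block, 10 Hz against 4 Hz gave 2 members (Mcu also passed, adjusted p = 0.0473) and 4 Hz against control lost Vdac1 (adjusted p = 0.0552) and gained Smdt1 (0.0426) and changed no other member's call. Not every same-numbered pair correlated above 0.1, so numbers were not taken to pair; 10 of 24 libraries correlated best with their own number, a hint from the data and not from the design. Without single libraries, counts ranged from 2 to 3 at 1 Hz, 4 to 6 at 4 Hz and 1 to 1 at 10 Hz relative to control, 0 to 1 for 4 Hz against 1 Hz, 1 to 2 for 10 Hz against 1 Hz and 0 to 2 for 10 Hz against 4 Hz. The 6 ratio differences past adjusted p 0.05 ranged from 2 to 7; leaving out control library 1, 2, 4 or 5 left 2 (the Mcub to Mcu ratio at 1 and 4 Hz) and control library 3 left 3. Total count scaling and the TPM scale moved the median of all genes at 4 Hz by -0.11 and -0.16 on the log2 scale. Of 1188 alternative values of single members, 85 lost and 24 gained the threshold, and 50 changed sign. Of these 50, 1 involved a value that passed and 49 did not, among them Vdac3 at 4 Hz, Letm1 at 1 Hz on the TPM scale and Mcub at 1 Hz with total count scaling.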

Other observations

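In every condition, the library with the highest Smdt1 level was also the library with the lowest Vdac3 level. These were control library 4 (104 CPM Smdt1, 158 CPM Vdac3), 1 Hz library 6 (137 and 136), 4 Hz library 6 (147 and 139.9) and 10 Hz library 4 (116 and 150.6). The Smdt1 transcript has 749 bases and a GC content of 58.7%, and the Vdac3 transcript 1419 bases and 45.9%. This was noticed in the data, and the part of transcript GC content or length in it was not tested.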
